A study of Gossypium hirsutum with 17 samples.

Results

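Transcripts for a ceramide glucosyltransferase and for the sterol methyltransferase SMT2-2 were followed in cotton (Gossypium hirsutum) seedlings under 5 abiotic stresses. They are read by 4 of the 24029 non-control probe sets of the Affymetrix cotton array. The 3 probe sets annotated as ceramide glucosyltransferase are Ghi.7915.4.S1_x_at, Ghi.7915.3.S1_x_at and Ghi.7915.4.A1_s_at, named CGT-a, CGT-b and CGT-c in that order, and Ghi.10022.2.S1_s_at reads SMT2-2 (LOC107905551). They were chosen by their signals in these same arrays, where ceramide glucosyltransferase was high and SMT2-2 low under ABA, mannitol and alkaline pH. Their differences between conditions are therefore described without a test.

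Both enzymes shape the lipids of plant membranes. Ceramide glucosyltransferase adds a glucose to ceramide, and the glucosylceramides it makes are among the main sphingolipids of the plasma membrane and the vacuolar membrane. SMT2 adds a methyl group to the side chain of a sterol intermediate, and in Arabidopsis this step sets how much sitosterol is made relative to campesterol. Sterols and glucosylceramides occur together in the plant plasma membrane and affect how ordered and how permeable it is.

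There were 3 arrays each of seedlings given 1 μM ABA (abscisic acid, a plant hormone of water stress), cold, 200 mM mannitol (osmotic stress) or 200 mM NaCl, 2 arrays of seedlings grown at pH 11, and 3 arrays of unstressed seedlings (control). ABA, mannitol, NaCl and alkaline pH were applied for 10 days. The medium was at pH 5.8 for ABA, cold, mannitol and NaCl, and its pH is not stated for control. Cold seedlings were kept at 25°C for 8 days and at 4°C for 2 days. All seedlings were collected 14 days after germination. Arrays of a group are labelled as biological replicates, but the study's methods state that RNA of the biological replicates was pooled, so every SD, standard error and p-value below measures the spread between arrays and that spread may be technical. Whole seedlings were used, so fewer cells of a type and less RNA per cell cannot be told apart.

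The deposited signals were not on one scale. Under ABA, mannitol and pH, all 8 arrays shared a 2% trimmed mean signal of 500.1, while it was 18.5 to 140 in the 9 arrays of cold, NaCl and control. The value of 18.5 was that of NaCl replicate 1 alone, and the rest of the 9 lay between 107 and 140. The ratio of 3′ to 5′ actin signal, a measure of RNA integrity and labelling, was 2.85 to 5.31 on the log2 scale in the 8 arrays and 2.69 to 7.22 in the other 9, with the highest value in cold replicate 3. By condition, it was 2.78 to 3.05 in control, 4.46 to 5.31 under ABA, 2.85 to 3.97 under mannitol, and 4.45 and 4.46 under pH. It was 2.70 to 4.79 under NaCl and 2.69 to 7.22 under cold. The levels below are log2 signals after quantile normalization over the 17 arrays. For ABA, mannitol and pH against control, the condition and the scale of the arrays cannot be told apart, whereas none of the cold, NaCl and control arrays was scaled to that value. For ABA and pH against control, the condition and the higher actin ratio cannot be told apart either.

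The ceramide glucosyltransferase transcript had a low signal in control seedlings and was among the abundant transcripts under ABA, mannitol and pH. For CGT-a, normalized log2 signals were 10.29, 8.84 and 8.46 under ABA, 8.81, 8.33 and 8.26 under mannitol, and 8.89 and 8.06 under pH. The same probe set read 3.06, 3.79 and 4.87 under cold and 2.23, 3.58 and 4.06 under NaCl, and −0.36, 2.27 and 3.50 in control. No array of ABA, mannitol or pH came within 3.18 log2 units of any array of the other 3 conditions.

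The other 2 probe sets gave the same split of arrays. CGT-b read 9.80, 8.60 and 8.35 under ABA, 8.51, 7.94 and 7.90 under mannitol, and 7.89 and 7.43 under pH. It read 3.37, 4.75 and 5.34 under cold, 4.19, 3.66 and 4.10 under NaCl, and 2.90, 2.52 and 4.10 in control. Its nearest values on either side of the split were 2.09 log2 units apart. CGT-c read 10.83, 9.77 and 9.05 under ABA, 8.96, 8.61 and 8.49 under mannitol, and 9.42 and 8.70 under pH, against 5.07, 4.90 and 5.22 in control. Cold (4.64, 5.64 and 5.80) and NaCl (5.99, 5.09 and 5.72) lay close to control on this probe set, and its gap was 2.50. Of all 24029 probe sets, 6.55% were higher in every one of the 8 arrays than in any of the other 9. A gap at least as wide as that of CGT-a was met by 5 probe sets, that of CGT-b by 47 and that of CGT-c by 26. These counts include the probe set itself and any other ceramide glucosyltransferase probe set with as wide a gap. The probe sets were chosen for this split, so nothing is read from the counts.

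**Figure D1:**
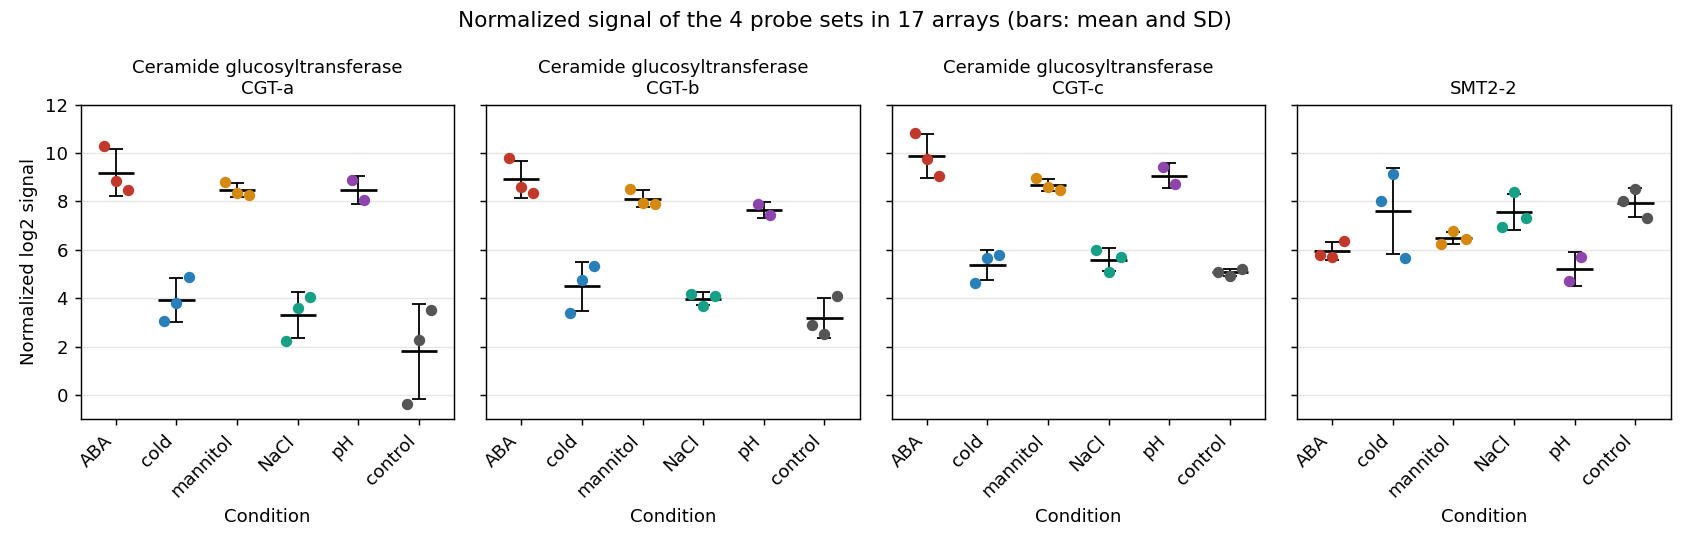
Normalized log2 signal (vertical axis) of the 4 probe sets in ABA, cold, mannitol, NaCl, pH and control seedlings. Each point is 1 array, and the bars are the mean and SD of a condition. All 8 arrays of ABA, mannitol and pH lie above the other 9 for ceramide glucosyltransferase, and SMT2-2 is lowest in pH.

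The 3 probe sets are not 3 independent measurements of the gene. They share a transcript cluster, and probe sets ending in _x_at or _s_at can bind related transcripts, so members of a family may contribute. Within the 8 arrays of ABA, mannitol and pH their signals correlated at r = 0.92, 0.94 and 0.87 in pairs, and within the other 9 at r = 0.72, 0.36 and 0.76. These values describe arrays that share conditions and carry no test. The gene itself is named only by similarity to an Arabidopsis ceramide glucosyltransferase.

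Averaged over its 3 probe sets, ceramide glucosyltransferase stood at 9.33 ± 0.87 under ABA, 8.42 ± 0.29 under mannitol, 4.58 ± 0.83 under cold, 4.29 ± 0.29 under NaCl (log2 level, mean ± SD, n = 3 each) and 8.40 ± 0.47 under pH (n = 2), against 3.35 ± 0.87 in control (n = 3). The difference from control was 5.99 ± 0.52 under ABA (log2, moderated standard error from limma), a 63.4-fold higher signal. It was 5.08 ± 0.52 or 33.7-fold under mannitol, and 5.05 ± 0.58 or 33.2-fold under pH. The 3 stresses did not overlap control, as was so for 26.7%, 28% and 30.7% of all probe sets that were higher under ABA, mannitol and pH. These contrasts chose the probe sets, so nothing is read from the shares.

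The size of these folds depends on how low signals are treated, because the control signals were close to 0. As deposited, CGT-a had signals of 2827, 1134 and 873 under ABA, against 0.427, 2.55 and 6.23 in control. With signals scaled to a common trimmed mean and an offset of 32 added before log2, the mean difference of the 3 probe sets was 4.61 under ABA, 3.81 under mannitol and 3.76 under pH. The single probe sets differed accordingly: under ABA the log2 difference was 7.39 ± 0.84 for CGT-a, 5.75 ± 0.53 for CGT-b and 4.82 ± 0.43 for CGT-c, the probe set with the highest control level.

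Ranks within an array do not depend on its scale. Quantile normalization keeps these ranks, so the percentiles restate the normalized levels and are not separate evidence. The 3 probe sets stood on average at percentile 88.2 under ABA, 80.8 under mannitol and 80.1 under pH, against 21.4 in control. Under cold and NaCl they stood at percentiles 31.8 and 28.7.

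**Figure D2:**
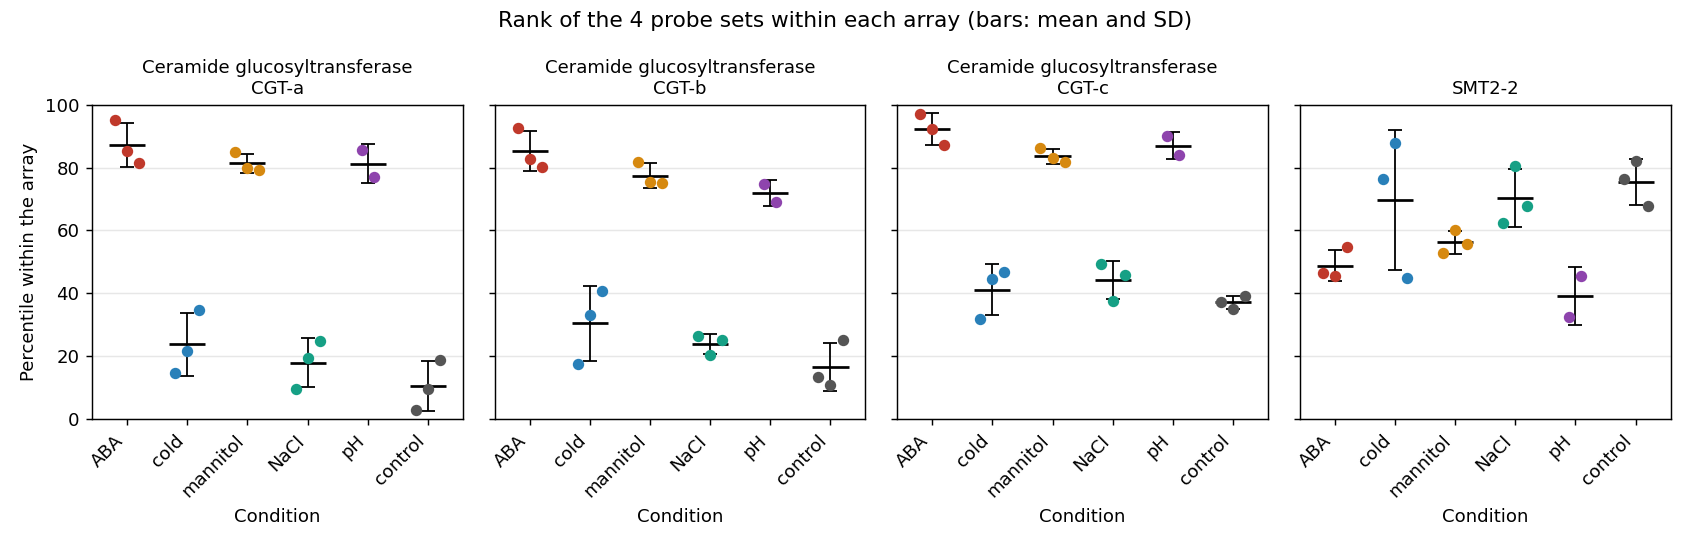
Percentile of each of the 4 probe sets among all probe sets of the same array (vertical axis), by condition. Each point is 1 array, and the bars are the mean and SD. SMT2-2 averaged percentile 39.1 under pH and 75.4 in control, while the ceramide glucosyltransferase probe sets were low in cold, NaCl and control.

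The order of the ceramide glucosyltransferase levels, averaged over the 3 probe sets, was ABA, mannitol, pH, cold, NaCl and control. CGT-b alone had this order: pH was above mannitol for CGT-a (8.47 each after rounding) and CGT-c (9.06 under pH and 8.69 under mannitol), and for CGT-c cold (5.36) was below NaCl (5.60). ABA exceeded mannitol by 0.91 ± 0.52 and pH by 0.93 ± 0.58 on the log2 scale, and its arrays overlapped both in the average. Single probe sets did not all overlap: ABA lay above pH by a gap of 0.46 for CGT-b and above mannitol by a gap of 0.094 for CGT-c. pH differed from mannitol by −0.02 in the average and overlapped it, though for CGT-b pH lay below mannitol by a gap of 0.013. In the average, the one step wider than the spread of the arrays was that between pH and cold, where pH was higher by 3.81 ± 0.58 with no overlap (as were 26.5% of all probe sets). Cold exceeded NaCl by 0.29 ± 0.52 with overlap. Against control, the difference was 1.24 ± 0.52 under cold and 0.94 ± 0.52 under NaCl, and in both the arrays overlapped control.

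Cold and NaCl did not move the 3 probe sets alike. The cold difference was 2.10 ± 0.84 for CGT-a, 1.31 ± 0.53 for CGT-b and 0.30 ± 0.43 for CGT-c, and the NaCl difference was 1.49, 0.81 and 0.54. For CGT-c the sign depended on the scaling. Its cold difference was −0.16 on the deposited scale and −0.10 after trimmed mean scaling, and its NaCl difference was −0.25 on the deposited scale.

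SMT2-2 showed the opposite pattern, with a smaller range. Its normalized log2 signals were 5.77, 5.69 and 6.38 under ABA, 6.25, 6.77 and 6.46 under mannitol, and 4.70 and 5.71 under pH, against 8.01, 8.53 and 7.33 in control. Cold gave 8.02, 9.15 and 5.66, and NaCl gave 6.95, 8.38 and 7.34. The ABA, mannitol and pH arrays all lay below the control arrays, and they overlapped the cold, NaCl and control arrays together only through cold replicate 3, the array with the highest actin ratio. Of all probe sets, 3.28% were lower in each of the 8 arrays than in any of the other 9. Within ABA, mannitol, cold and NaCl, SMT2-2 was lower in each array with a higher actin ratio. Under ABA, actin ratios of 4.46, 5.17 and 5.31 went with SMT2-2 levels of 6.38, 5.77 and 5.69. Under cold, ratios of 2.69, 3.82 and 7.22 went with 9.15, 8.02 and 5.66. In control this order did not hold (2.78, 2.98 and 3.05 with 8.53, 7.33 and 8.01), and the pH ratios were nearly equal (4.46 and 4.45). The part of RNA quality in the SMT2-2 levels was not tested.

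The SMT2-2 difference from control was −2.01 ± 0.69 under ABA, −1.46 ± 0.69 under mannitol and −2.75 ± 0.77 under pH (log2, moderated standard error), so that control signals were 4.01, 2.76 and 6.72 times as high. Of all probe sets, 26.8%, 29.2% and 30.7% likewise lay below control without overlap under ABA, mannitol and pH. NaCl differed from control by −0.40 ± 0.69 and overlapped it. Cold differed by −0.35 ± 0.69 and also overlapped it, but without cold replicate 3 the difference was 0.62, with the opposite sign. From low to high, the log2 levels (mean ± SD) were 5.21 ± 0.71 under pH (n = 2), 5.95 ± 0.38 under ABA, 6.49 ± 0.26 under mannitol, 7.55 ± 0.74 under NaCl, 7.61 ± 1.78 under cold and 7.95 ± 0.60 in control (n = 3 each). NaCl, cold and control overlapped, as did ABA with mannitol and pH with ABA. Mannitol differed from NaCl by −1.06 ± 0.69 without overlap, as 20.5% of all probe sets did in that direction, and pH differed from mannitol by −1.29 ± 0.77 without overlap, as 19.3% did.

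The sign of the SMT2-2 difference rested on bringing the arrays to one scale. As deposited, its signals were 138, 126 and 214 under ABA, against 143, 205 and 88.5 in control, and the log2 difference on that scale was 0.18 under ABA, 0.88 under mannitol and −0.55 under pH. On the same scale the median of all probe sets was higher by 2.09 under ABA, 2.19 under mannitol and 2.11 under pH, so SMT2-2 lay below the median shift in each of the 3 stresses. By rank within the array, which quantile normalization keeps, SMT2-2 stood at percentile 48.8 under ABA, 56.2 under mannitol and 39.1 under pH, against 75.4 in control. These percentiles restate its normalized levels. The ceramide glucosyltransferase difference was positive on every scale, at 8.09 under ABA, 7.27 under mannitol and 7.21 under pH on the deposited one.

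**Figure D3:**
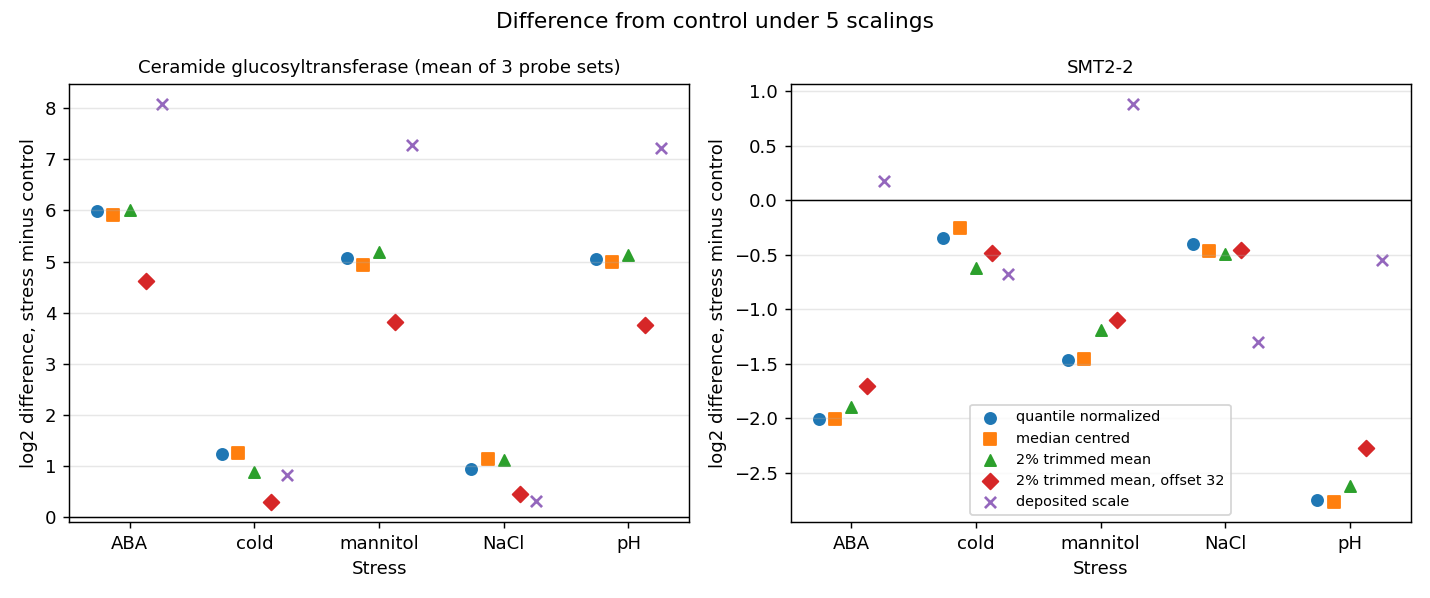
Log2 difference of each stress from control (vertical axis) for ceramide glucosyltransferase and SMT2-2 under 5 ways of scaling the arrays, marked by symbol. Ceramide glucosyltransferase is above 0 in all of them, and SMT2-2 is above 0 only for ABA (0.18) and mannitol (0.88) on the deposited scale.

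The levels of the 2 transcripts were also set against each other array by array. Because the arrays fall into separate clusters, no correlation between the 2 transcripts over all 17 is given. Within the 8 arrays of ABA, mannitol and pH, ceramide glucosyltransferase and SMT2-2 had r = −0.27 (Spearman −0.38), and within the 9 arrays of cold, NaCl and control r = −0.47 (Spearman −0.35). Each of these sets mixes 3 conditions, so the values are descriptions and do not measure the course within a condition.

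A second probe set of the SMT2-2 transcript cluster, which has no gene name in the annotation used here, was not used to choose the members and was tested with limma over all probe sets. Its signal correlated with that of SMT2-2 at r = 0.91 within the ABA, mannitol and pH arrays and r = 0.60 within the others. It may read the same or related transcripts, so its test is not independent of the choice of SMT2-2. It read 7.38 and 7.89 under pH, against 9.21, 9.55 and 8.56 in control, with no overlap. It fell by 1.48 ± 0.33 on the log2 scale under pH (adjusted p = 0.00594), where 10.4% of all probe sets fell at least 2-fold with an adjusted p of at most 0.05. This call was lost without pH replicate 1, when the difference was −1.23 (adjusted p = 0.0729), and on the deposited scale it lay above control by 0.74. Under ABA it read 8.60, 8.48 and 8.98, a difference of −0.42 that did not pass the test (adjusted p = 0.314). The differences under cold (0.48), mannitol (−0.16) and NaCl (−0.08) did not pass either.

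Other transcripts of membrane lipid synthesis were read from a list of 21 probe sets found by name. Probe sets with the same gene name or similarity are counted separately, so the counts are not of separate genes. This holds for the fatty acid elongation gene KCS38, a lipid transfer protein, HMG-CoA reductase and squalene monooxygenase. Of these, 13 are named by the platform annotation, and 8 only in the study's table of transcripts changed by ABA, which was made from these arrays and is not independent evidence of direction. Under ABA 10 of the 21 rose and 3 fell, where 11.8% of all probe sets rose and 10.3% fell. Of the 13 named by the platform, 3 rose and 3 fell, whereas 7 of the 8 others rose and none fell. Under mannitol 6 rose and 2 fell (11.9% and 10.9% of all probe sets), and under pH 6 rose and 2 fell (11.7% and 10.4%). Under cold 3 rose and none fell (5.66% and 5.48%). On the deposited scale no list member fell in these 4 stresses, and 15 rose under ABA, 14 under mannitol, 13 under pH and 0 under cold. There the median of all probe sets was itself higher by 2.09 under ABA, 2.19 under mannitol and 2.11 under pH. Nothing is read from the counts on that scale. Under NaCl limma called none of the 21 (0.466% of all probe sets rose and 0.229% fell), 3 passed an unadjusted p of 0.05 with a 2-fold difference, and a permutation test of the SAM type called 0. The median log2 difference of the list was 1.25 under ABA, 0.24 under cold, 0.12 under mannitol, 0.17 under NaCl and 0.15 under pH, against −0.03, 0.00, −0.05, −0.03 and −0.03 over all probe sets. The name source divided these medians. In the same order of stresses, they were −0.47, 0.22, −0.32, 0.08 and −0.43 for the 13 named by the platform. For the 8 others they were 2.06, 0.38, 1.09, 0.75 and 1.55.

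Among the sterol methyltransferases, SMT2-1 (LOC107959396), the other named SMT2 transcript, fell by 1.06 ± 0.25 under ABA (adjusted p = 0.00832) and fell by 1.19 ± 0.28 under pH (adjusted p = 0.00878; limma). Its ABA call was lost without control replicate 2 or ABA replicate 1, and its pH call without pH replicate 1. Under mannitol it differed by −0.68 (adjusted p = 0.0614), which became a call with median centring (−1.10, adjusted p = 0.00736), and under cold and NaCl by −0.41 and −0.36. Like SMT2-2, it lay above control on the deposited scale under ABA (0.95) and mannitol (1.24), and also under pH (0.82). SMT1 (LOC107950679), which carries out the first methylation of the side chain, did not pass in any stress. Its differences were −0.47 under ABA, 0.41 under cold, 0.33 under mannitol, 0.56 under NaCl and 0.15 under pH.

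Transcripts of earlier steps of the pathway rose in some stresses. Of 2 probe sets similar to HMG-CoA reductase, which makes mevalonate, the first (HMGR-a) rose by 2.00 ± 0.19 under ABA (adjusted p = 3.95e-05), 2.19 under mannitol and 2.00 under pH. The second (HMGR-b) rose by 1.34 under ABA, 1.69 under mannitol and 1.56 under pH. Of 3 probe sets similar to squalene monooxygenase, which oxidises squalene on the way to the sterol rings (SQE-a, SQE-b and SQE-c), 2 rose under ABA. SQE-a rose by 2.12 (adjusted p = 0.0120) and SQE-b by 2.70 (adjusted p = 0.0201), and without control replicate 2 both calls were lost (1.74, adjusted p = 0.0545, for SQE-a and 2.22, adjusted p = 0.0836, for SQE-b). The SQE-b call was also lost without ABA replicate 2 (2.63, adjusted p = 0.0628) or ABA replicate 3 (2.40, adjusted p = 0.0657). SQE-c differed by 1.45 (adjusted p = 0.0789). All 5 of these probe sets are named only in the study's ABA table.

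**Figure D4:**
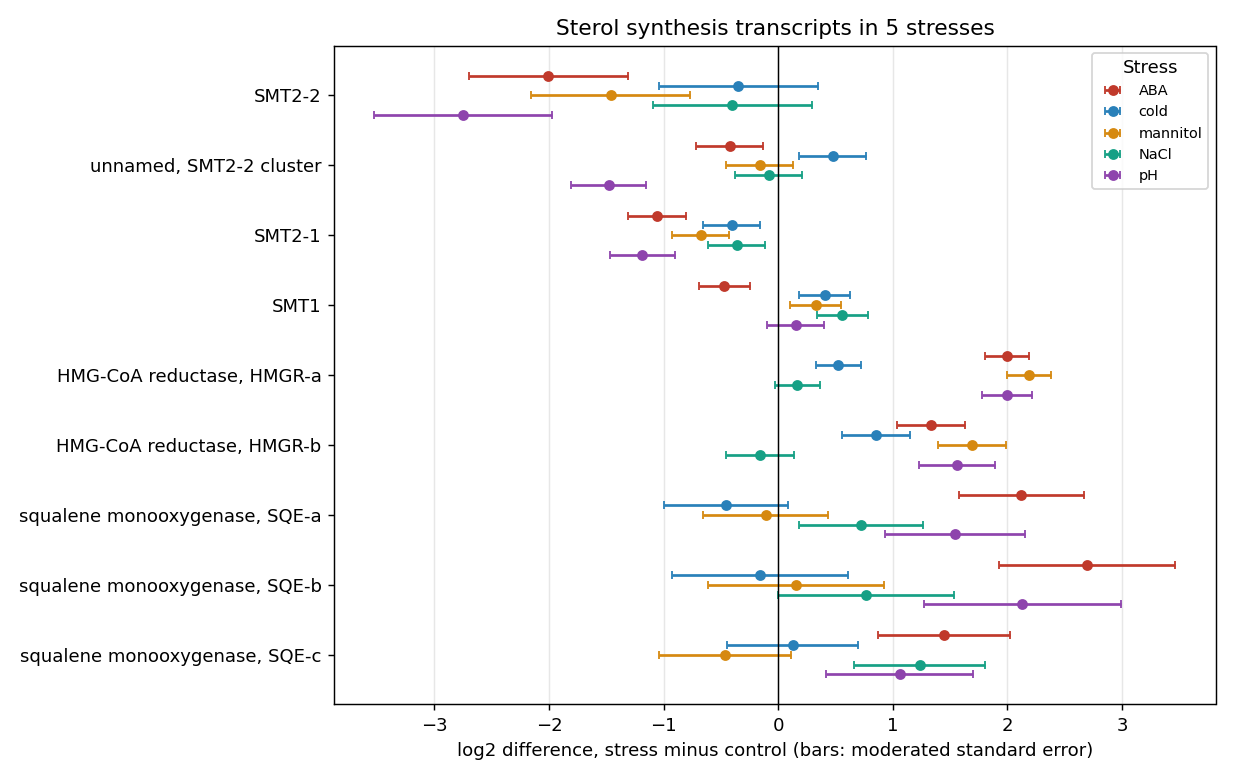
Log2 difference from control (horizontal axis) of SMT2-2, the other probe set of its cluster, SMT2-1, SMT1, and probe sets similar to HMG-CoA reductase and squalene monooxygenase, coloured by stress. Points are differences of group means and bars are moderated standard errors. The methyltransferases SMT2-2 and SMT2-1 lie left of 0 in all 5 stresses after quantile normalization, a sign that turned in some stresses on the deposited scale, and both HMG-CoA reductase probe sets lie between 1.34 and 2.19 under ABA, mannitol and pH.

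The named transcripts whose signal over the 17 arrays was most like that of ceramide glucosyltransferase were found by Pearson correlation among 802 probe sets with a gene name. The names came from the platform annotation or from the study's tables of changed transcripts, which were made from these arrays. They were similar to the dormancy-associated protein DRM1 (r = 0.975), a lactoylglutathione lyase (by a pair of probe sets, r = 0.965 and 0.962), a double-stranded RNA binding protein (r = 0.957) and the helicase PRH75 (r = 0.957). All of these are named only in the study's tables, so the choice among named probe sets was not independent of the stress response. The correlations run across the separate clusters of arrays, so the split between the clusters enters them. Over all probe sets 352 reached r of at least 0.9. For SMT2-2 the most alike were the expansin EXPA11A (r = 0.942), which loosens cell walls, SMT2-1 (r = 0.885), the fasciclin-like arabinogalactan protein FLA14 (r = 0.857), a transcript similar to the nitrate transporter NTP2 (r = 0.849) and a pectinesterase (r = 0.842). The last pair are named only in the study's tables. Here 43 probe sets reached r of at least 0.9.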

How the data were processed

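RNA of cotton seedlings was hybridised to 17 arrays, treated here as single-colour because each has 1 signal. The study's methods describe Cy3 and Cy5 labelling of stressed and control plants in pairs. The deposited values are signal intensities that the authors made with MAS5 (version not given in the sources used here). After 103 control probe sets were left out, intensities of 24029 probe sets were put on the log2 scale and quantile normalized in R 4.3.3, and 1 limma 3.58.1 fit covered all arrays. Changed probe sets differed by 2-fold or more with p, adjusted over all probe sets (Benjamini-Hochberg), not above 0.05. This test was checked on simulated data. The members and lists were chosen with earlier results of these data known, and the members have no test. The text names the 4 members, other probe sets of their clusters, every sterol probe set of the list, up to 4 per other lipid class by smallest adjusted p in any stress (2 more probe sets, a KCS38 and a lipid transfer protein one, were added after their values were seen), and the 5 named probe sets most correlated with each transcript. Names came from the platform annotation (697 probe sets with 1 symbol, 46 with several, which were not named) and RefSeq, where all 697 matched. A further source was 990 transcript titles in the study's tables of changed transcripts, made from these arrays. Of these titles, 976 belong to probe sets outside the 697. The study's own fold changes were not used. The number of arrays limits the precision. Alternatives were 4 scalings, a filter on the lowest 25% of signals, a variance trend, fits to pairs of groups, a SAM-type test, a replicate block and leaving out arrays. Genome positions and sequences were not used here.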

Additional observations from a re-analysis of the deposited data

How the results depend on the processing

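The deposited scale changed most. There the median of all probe sets shifted by 2.09 under ABA, 2.19 under mannitol, 2.11 under pH, −0.27 under cold and −0.79 under NaCl, and 99.8%, 99.6% and 99.4% of called probe sets rose under ABA, mannitol and pH, against 53.4%, 52.2% and 52.8% after quantile normalization. On that scale ceramide glucosyltransferase was 8.09 higher under ABA, 7.27 under mannitol and 7.21 under pH, and SMT2-2 differed by 0.18, 0.88 and −0.55. The following also changed sign there: CGT-c (−0.16 cold, −0.25 NaCl), SMT2-1 (0.95 ABA, 1.24 mannitol, 0.82 pH), SMT1 (1.72 ABA, −0.27 NaCl), the unnamed probe set of the SMT2-2 cluster (1.72 ABA, 1.95 mannitol, 0.74 pH), KCS38-c (1.06 ABA, 0.96 mannitol), the lipid transfer protein (0.66 ABA, 0.52 pH), HMGR-a (−0.57 NaCl), SQE-a (2.15 mannitol, −0.093 NaCl), SQE-b (−0.034 NaCl) and SQE-c (−0.16 cold, 1.89 mannitol). The lipid list had 15 changed probe sets under ABA, 14 under mannitol and 13 under pH, all higher than control, and 0 under cold.

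The share of called probe sets that rose under cold was 50.8% after quantile normalization, 63.7% with median centring, 31.8% with trimmed mean scaling, 33.8% with the offset and 28.7% as deposited. Under mannitol it was 66.8% with trimmed mean scaling and 64.5% with the offset, and under NaCl 67.1% after quantile normalization and 55.8% with the offset.

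Median centring gave 5 changed list members under cold, 0.043 for SMT2-1 and 0.052 for SQE-b under cold, and SMT2-1 was called under mannitol (−1.10). Trimmed mean scaling gave −0.10 for CGT-c and −0.11 for SQE-c under cold, and 0.072 for SQE-a under mannitol. With an offset of 32 these were −0.053, −0.075 and 0.064, and ceramide glucosyltransferase differed by 4.61 under ABA, 0.29 under cold, 3.81 under mannitol and 3.76 under pH. The SAM-type test called 13 list members under pH. Shares of all probe sets called are not given for these alternatives, so nothing is read from their list counts. The cause of the changes between settings was not tested.

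Leaving out 1 array in turn, ceramide glucosyltransferase ranged over 5.49 to 6.45 under ABA, 0.83 to 1.70 under cold, 4.67 to 5.54 under mannitol, 0.54 to 1.40 under NaCl and 4.64 to 5.51 under pH. SMT2-2 ranged over −2.32 to −1.72, −1.11 to 0.62, −1.78 to −1.18, −0.81 to −0.10 and −3.24 to −2.26 in the same order. The list's changed count was 10 to 14, 2 to 3, 8 to 8, 0 to 1 (1 without NaCl replicate 2) and 6 to 11. Signs turned for the unnamed probe set of the SMT2-2 cluster (−0.43 to 0.061 mannitol, −0.36 to 0.14 NaCl), HMGR-b (−0.53 to 0.13 NaCl), SMT1 (−0.18 to 0.49 pH), SQE-a (−0.49 to 0.21 mannitol), SQE-b (−0.63 to 0.24 cold, −0.32 to 0.55 mannitol) and SQE-c (−0.42 to 0.59 cold). Leaving out cold replicate 3 and NaCl replicates 1 and 2 together, chosen after seeing the data, gave 0.61 for SMT2-2 and −0.43 for SQE-c under cold, and −0.046 for HMGR-a under NaCl.

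Deviations from the group means of same-numbered arrays of different conditions had a mean r of 0.0079 (lowest −0.18), against −0.004 for other arrays. The main fit treated the arrays as unpaired, but an average over all probe sets cannot exclude pairing. With a replicate block, ceramide glucosyltransferase differed by 5.16 and SMT2-2 by −2.99 under pH, and the lipid list had 14 changed members under ABA. The choline kinase call under pH was lost (limma adjusted p = 0.0511), SQE-c passed under ABA (adjusted p = 0.0391) and SQE-a under pH (adjusted p = 0.0400), and no other call of a named probe set changed.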

Other observations

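Lipid transcripts outside the sphingolipid and sterol branches also differed between stresses. A probe set similar to an acyl-CoA binding protein, which carries activated fatty acids, rose by 2.41 under ABA, 2.50 under cold, 3.19 under mannitol and 3.54 under pH on the log2 scale (limma). A probe set similar to choline kinase, which starts phosphatidylcholine synthesis, rose by 2.47 under ABA, 1.66 under cold, 2.63 under mannitol and 1.52 under pH. Its cold call was lost when any of control replicates 2 and 3 and cold replicates 1 and 3 was left out, and its pH call when any of control replicates 2 and 3 and the pH arrays was. A lipid transfer protein fell by 1.17 under ABA and fell by 1.33 under pH, but a second probe set of the same gene, named after its values were seen, was not called (−0.24 under ABA, limma adjusted p = 0.766, and −1.43 under pH, adjusted p = 0.0835). A probe set similar to a phosphatidylinositol-4-phosphate 5-kinase rose by 1.25 under ABA. Like the acyl-CoA binding protein and choline kinase probe sets, it is named only in the study's ABA table, made from these arrays. The rises of these probe sets are therefore not independent evidence of direction. Phospholipase D delta differed by 0.76 under ABA (limma adjusted p = 0.0478), below the 2-fold limit.

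The 4 probe sets (KCS38-a to KCS38-d) annotated as KCS38, a ketoacyl-CoA synthase of very-long-chain fatty acid elongation, did not move together. KCS38-a rose by 2.65 under ABA, 1.71 under cold, 2.85 under mannitol and 2.51 under pH, and KCS38-b rose by 2.14 under ABA, 1.99 under mannitol and 2.54 under pH. KCS38-c fell by 1.12 under ABA and fell by 1.24 under mannitol. Its ABA difference missed the 2-fold limit without ABA replicate 3 (−0.87) and with an offset of 32 (−0.99). KCS38-d, named after its values were seen, was not called in any stress. Under pH it differed by −0.89 (limma adjusted p = 0.0319), below the 2-fold limit.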
